A study of Mus musculus with 15 samples.

Results

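The 10 genes described here are core and output genes of the circadian clock, measured in whole epididymis of mice labelled as Plag1 knockout, heterozygous or wild type. They were taken by gene symbol from the deposited count table, and all 10 of 10 were found among its 41591 entries and passed the filter on low counts, as 19388 entries did. Plag1 encodes a zinc finger transcription factor. The knockout group (KO, labelled Plag1 -/-), the heterozygous group (HET, labelled Plag1 -/+) and the wild-type group (WT) held 5 mice each, with 1 library per mouse, made with a stranded mRNA kit. All 15 mice were 7 weeks old and carry the strain label Brown Swiss. The labels do not say which part of Plag1 is disrupted, whether the loss is confined to a tissue, or at what clock time or on what day the tissue was taken. Libraries held 20.3 to 42.0 M counts, and levels are given as CPM (counts per 1 M counts) after scaling by the trimmed mean of M-values (TMM).

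The clock is a feedback loop of transcription factors that runs in almost every tissue. BMAL1, the product of Arntl, pairs with CLOCK or with its relative NPAS2 and switches on genes that carry E-box motifs, among them the Per and Cry genes, whose products return to block that pair. The nuclear receptors REV-ERB alpha and REV-ERB beta, encoded by Nr1d1 and Nr1d2, are switched on in the same way and repress Arntl and Npas2, so that Arntl and Npas2 messenger RNA peak at about the opposite time of day to Dbp, Per and Nr1d messenger RNA. A single tissue sample per animal therefore gives 1 point of this cycle. Below, Arntl, Npas2 and Clock are called the activator arm and the other 7 genes the target arm.

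The genes were picked from the clock with their differences between these genotypes already known. Their levels and fold changes between genotypes are therefore given as a description, with no p-value. The change with Arntl inside a genotype, which does not use the differences between genotype means, is tested further on in the same libraries. The lists of further genes were also chosen with earlier results of these data known, so their values between genotypes are descriptions too.

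The promoters of several target arm genes hold the motifs through which the loop is known to act. They are shown as background to the loop, and any part of them in the differences between genotypes was not tested. RefSeq promoter windows of build GRCm38.p6 were used for 9 of the 10 genes, all but Per2, and the 250 bases before the start site were searched on both strands for the E-box CACGTG, the related CACGTT, the D-box TTANNTAA bound by DBP, TEF and HLF, the ROR element TAGGTCA bound by ROR and REV-ERB proteins, and the cAMP response element TGACGTCA. Capitals mark the matches, and each line reads 5′ to 3′ on the gene's strand.
Ciart: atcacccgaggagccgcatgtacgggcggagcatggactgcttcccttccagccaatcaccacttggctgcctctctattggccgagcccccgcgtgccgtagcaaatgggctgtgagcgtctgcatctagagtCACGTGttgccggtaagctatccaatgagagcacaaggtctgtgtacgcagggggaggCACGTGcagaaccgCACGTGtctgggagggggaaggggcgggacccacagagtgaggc
Per1: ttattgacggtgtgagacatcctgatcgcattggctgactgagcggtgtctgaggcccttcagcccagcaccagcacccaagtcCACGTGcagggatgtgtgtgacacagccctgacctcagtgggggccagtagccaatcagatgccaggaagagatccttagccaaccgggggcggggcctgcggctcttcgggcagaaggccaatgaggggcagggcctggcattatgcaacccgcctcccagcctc
Per3: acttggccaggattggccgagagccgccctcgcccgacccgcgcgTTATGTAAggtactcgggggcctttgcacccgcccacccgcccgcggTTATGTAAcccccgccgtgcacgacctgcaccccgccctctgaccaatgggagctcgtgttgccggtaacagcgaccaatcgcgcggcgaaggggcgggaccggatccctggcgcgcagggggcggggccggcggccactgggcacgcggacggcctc
Nr1d1: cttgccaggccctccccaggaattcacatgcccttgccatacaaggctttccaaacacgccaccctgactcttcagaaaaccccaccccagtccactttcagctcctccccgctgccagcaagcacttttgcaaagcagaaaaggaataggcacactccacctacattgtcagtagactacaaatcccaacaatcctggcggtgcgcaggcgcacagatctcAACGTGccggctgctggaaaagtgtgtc
The Ciart window (chr3:95882229-95882478, minus strand) held 3 E-boxes, which begin 116, 58 and 44 bases before the start site. The upstream one of 2 Per1 windows (chr11:69098699-69098948, plus strand) held 1 E-box, which begins 166 bases before it. The Per3 window (chr4:151044666-151044915, minus strand) held 2 D-boxes, which begin 205 and 158 bases before it, and the Nr1d1 window (chr11:98775378-98775627, minus strand) held 1 CACGTT motif, read from the other strand and beginning 28 bases before it. These letters were not found in the windows of Arntl, Npas2, Clock, Dbp and Nr1d2, nor in the other window of Per1. Of 32851 promoter windows of the same length, 6.02% held the E-box, 3.85% CACGTT, 5.43% the D-box, 2.23% the ROR element and 1.55% the cAMP response element. A match describes a sequence, not a bound site, and a lack of one says only that these letters are not in the window.

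Plag1 itself was at 8.32 ± 0.97 CPM in KO, 10.1 ± 1.38 CPM in HET and 12.7 ± 0.87 CPM in WT (SD, n = 5 each), a log2 fold change of -0.61 ± 0.10 (SE) in KO against WT (edgeR quasi-likelihood test, Benjamini-Hochberg adjusted p = 0.00493). Counts are summed over the whole gene and the disrupted part is not given, so they do not measure functional transcript. Genes that mark epididymal principal cells were present and summed, over 7 genes, to between 43071 and 58786 CPM in KO libraries, with 51388 and 60590 CPM as the bounds of HET and 51248 and 58383 CPM as those of WT. Marker sums are CPM of all counts, without TMM. Markers of some other cell types differed between groups. By edgeR at an adjusted p under 0.05, 5 of 6 fibroblast genes passed as higher in KO against WT. So did 4 of 5 endothelial, 3 of 5 macrophage and 2 of 6 germ cell genes, although the tissue had been rinsed against sperm. Of principal cell genes 0 of 7 passed, and 0 of 5 smooth muscle, 0 of 3 basal cell and 0 of 3 clear cell genes. The same held for 0 of 5 fat cell genes and 0 of 4 skeletal muscle genes tested. Of all genes tested 6.00% passed, 4.40% as higher and 1.60% as lower. Single libraries stood apart: KO-739 held 3242 CPM of skeletal muscle genes against at most 71.2 CPM in the others, and KO-738 and HET-693 had 1.289% and 1.296% of counts in nuclear ribosomal RNA genes. Fat cell genes were highest in KO-695, at 168.6 CPM. They summed to 40.5, 7.34, 56.4 and 36.3 CPM in KO-694, KO-696, KO-738 and KO-739, against at most 34.9 CPM in HET and 28.5 CPM in WT. The median log2 fold change of the 5 fat cell genes in KO against WT was 2.19. All WT animals are numbered above 700, whereas 3 KO animals (KO-696, KO-695 and KO-694) and 2 HET animals (HET-692 and HET-693) are numbered below. The labels do not say what the numbers mean. Dbp shares exon or intron sequence with Sphk2, Nr1d1 with Thra and Per3 with Uts2. Arntl, Per2 and Ciart each share it with a long non-coding RNA gene, Clock with such a gene and a pseudogene, and Npas2 with pseudogenes. The strand setting of the counting is not given in the sources used here, so reads of these neighbours may be mixed.

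Arntl was higher and Dbp, Per2 and Ciart were lower in KO than in WT, while Clock was near 0. Npas2 was also higher, and its log2 fold change of 0.78 ± 0.19 and that of Dbp, -0.76 ± 0.15, were close in size. Per1, Per3, Nr1d1 and Nr1d2 had smaller negative values. In KO against WT, 5 of the 10 genes passed the threshold over all genes tested, Arntl and Npas2 as higher and Dbp, Per2 and Ciart as lower, where 6.00% of all genes passed, 4.40% as higher and 1.60% as lower. The genes were chosen on this contrast, so nothing is read from the share. DESeq2 put 7 and limma voom 6 of them past the threshold, with Per3 and Nr1d2, and with Nr1d2, added. An edgeR fit of only the KO and WT libraries left 2, Arntl and Per2. Over all genes, 1163 passed in the main fit, 1930 by DESeq2 and 287 in the fit of only KO and WT. By limma voom the count was also above 1163. In whole tissue, fewer cells of a type that holds a transcript cannot be told apart from less transcript per cell.

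**Figure D1:**
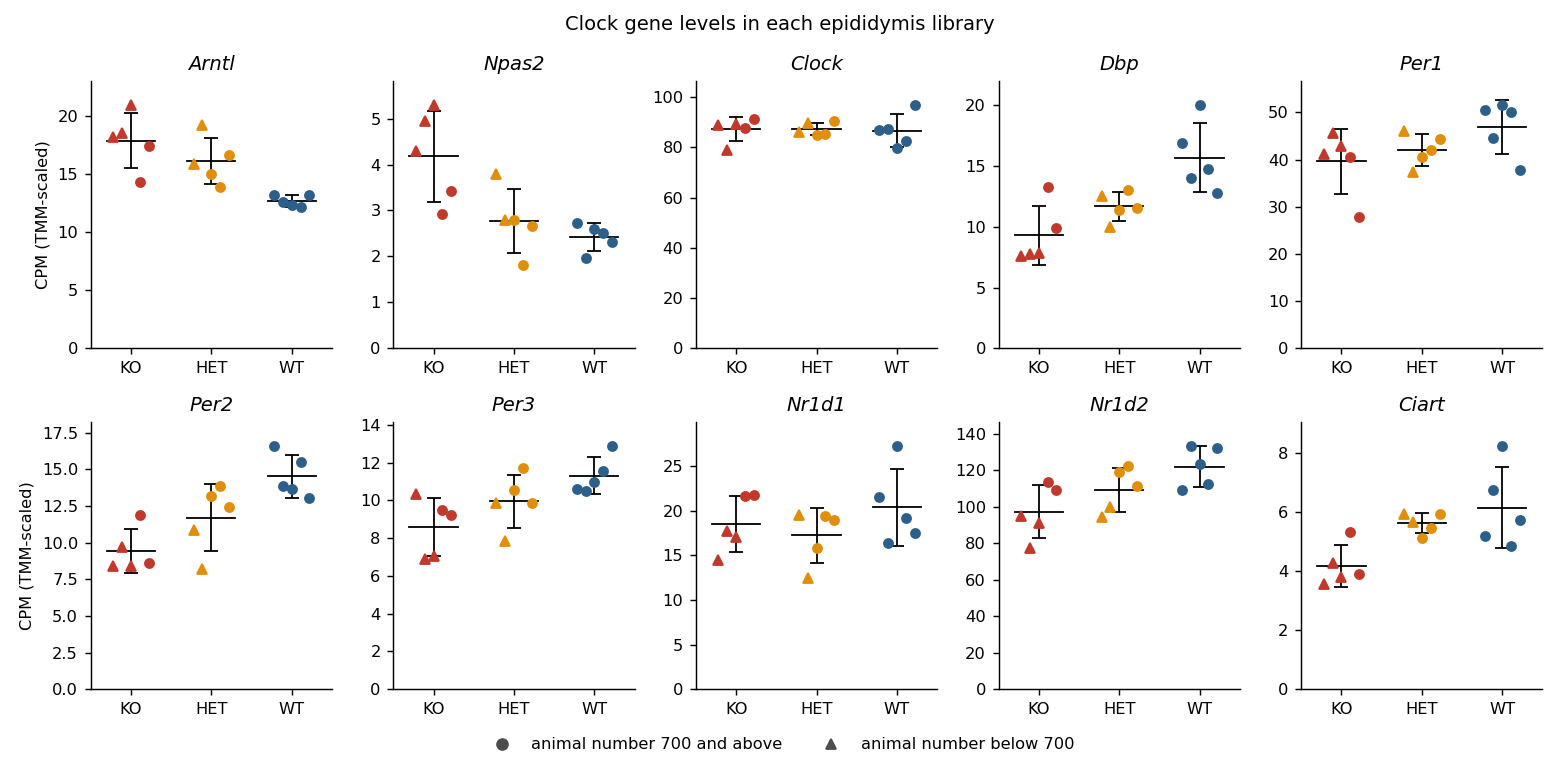
Level of each of the 10 clock genes in CPM (y axes, from 0) by genotype (x axes), with 1 point per library, triangles for animals numbered below 700 and circles for the rest, and the mean ± SD of 5 libraries in black. Arntl lay between 14.3 and 20.9 CPM in KO, above every WT library, and Clock averaged 87.1 CPM in KO, 87.3 CPM in HET and 86.7 CPM in WT.

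Arntl encodes BMAL1, the partner that both CLOCK and NPAS2 need (NCBI Gene 11865; GRCm38.p6 chromosome 7, 113178471 to 113314126, plus strand). Its level in KO was 18.2, 18.6, 20.9, 14.3 and 17.5 CPM in KO-694, KO-695, KO-696, KO-738 and KO-739. In HET it was 15.9, 19.2, 15.01, 13.9 and 16.6 CPM in HET-692, HET-693, HET-715, HET-718 and HET-735, and in WT it was 13.2, 12.6, 12.4, 12.2 and 13.2 CPM in WT-709, WT-719, WT-720, WT-723 and WT-726. Every KO library and every HET library lay above every WT library, and KO and HET overlapped. The mean was 17.9 ± 2.39 CPM in KO, 16.1 ± 2.00 CPM in HET and 12.7 ± 0.49 CPM in WT (SD, n = 5 each), so WT animals differed little among themselves. The log2 fold change was 0.49 ± 0.10 (SE) in KO against WT, a ratio of 1.41, and 0.34 ± 0.10 in HET against WT.

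Npas2, the relative of Clock that can take its place beside BMAL1, had the lowest mean level of the 10 genes per kilobase of exon (NCBI Gene 18143; chromosome 1, 39193702 to 39363240, plus strand). The KO libraries held 4.30, 4.95, 5.29, 2.91 and 3.43 CPM, in the order of animals given for Arntl, and the HET libraries 3.79, 2.78, 2.78, 1.82 and 2.67 CPM. The WT libraries held 2.73, 1.96, 2.61, 2.52 and 2.32 CPM. All KO libraries were above all WT libraries, but KO-738 only by a small margin, and HET overlapped with both. The log2 fold change was 0.78 ± 0.19 in KO against WT, a ratio of 1.72, with 0.59 ± 0.19 in KO against HET and 0.19 ± 0.19 in HET against WT.

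Clock, the main partner of BMAL1 in most tissues, did not follow them (NCBI Gene 12753; chromosome 5, 76209868 to 76305603, minus strand). It averaged 87.1 ± 4.82 CPM in KO, 87.3 ± 2.52 CPM in HET and 86.7 ± 6.48 CPM in WT, with a log2 fold change of 0.01 ± 0.05 in KO against WT and 0.01 ± 0.05 in HET against WT. Its spread between animals was low, with a biological coefficient of variation of 6.90% that placed it at percentile 8.43 of all genes tested, against 20.7% and percentile 79.2 for Npas2. Set against Clock in the same library, Npas2 stood at 4.84%, 6.28%, 5.92%, 3.32% and 3.76% of the Clock CPM in KO, at 2.13% to 4.40% in HET and at 2.24% to 3.27% in WT. This ratio does not depend on the scaling between libraries.

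Dbp encodes a PAR bZIP transcription factor that acts through D-boxes and is a direct E-box target of the BMAL1 complex (NCBI Gene 13170; chromosome 7, 45705100 to 45710203, plus strand). The KO libraries held 7.62, 7.80, 7.87, 13.3 and 9.88 CPM, the HET libraries 12.5, 9.98, 11.4, 13.0 and 11.5 CPM and the WT libraries 16.9, 14.0, 20.004, 14.8 and 12.8 CPM. Of the KO animals, the 3 numbered below 700 were close together at the low end, and KO-738 lay within the WT range. The log2 fold change was -0.76 ± 0.15 in KO against WT, which puts KO at 59.3% of WT, and -0.42 ± 0.15 in HET against WT, which puts HET at 74.5%. Without KO-738 the KO against WT value was -0.92.

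The 3 Per genes encode PER proteins, which with the CRY proteins block the BMAL1 complex. Per2 (NCBI Gene 18627; chromosome 1, 91415977 to 91459351, minus strand) held 8.44, 9.70, 8.43, 11.9 and 8.63 CPM in KO, 10.9, 8.17, 13.2, 13.9 and 12.4 CPM in HET and 16.6, 13.9, 13.7, 15.5 and 13.0 CPM in WT. All KO libraries were below all WT libraries, and KO and HET overlapped. Its log2 fold change was -0.63 ± 0.13 in KO against WT and -0.31 ± 0.13 in HET against WT. Per3 (NCBI Gene 18628; chromosome 4, 150997018 to 151044707, minus strand) averaged 8.60 ± 1.55 CPM in KO, 9.97 ± 1.41 CPM in HET and 11.3 ± 0.98 CPM in WT. Its highest KO library, at 10.3 CPM, was just under its lowest WT library, at 10.5 CPM, and its log2 fold change in KO against WT was -0.40 ± 0.12.

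Per1, which also answers to hormones and to cAMP signals, varied otherwise (NCBI Gene 18626; chromosome 11, 69095108 to 69109965, plus strand). It held 41.1, 45.6, 43.0, 40.6 and 27.9 CPM in KO, a median of 42.0 CPM between 37.4 and 46.1 CPM in HET, and 50.5, 44.5, 51.5, 50.1 and 37.8 CPM in WT. The groups overlapped, and the lowest library was KO-739, the one with skeletal muscle transcripts. The log2 fold change in KO against WT was -0.24 ± 0.12, and -0.14 without KO-739.

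Of the REV-ERB genes, Nr1d1 had the value nearest to 0 of the target arm, and Nr1d2 a larger one. Nr1d1 (NCBI Gene 217166; chromosome 11, 98767932 to 98775377, minus strand) held 14.4, 17.8, 17.0, 21.6 and 21.7 CPM in KO, between 12.4 and 19.6 CPM in HET and between 16.5 and 27.3 CPM in WT, with a log2 fold change of -0.14 ± 0.16 in KO against WT. Nr1d2 (NCBI Gene 353187; chromosome 14, 18204056 to 18239106, minus strand) averaged 97.2 ± 14.6 CPM in KO, 109.4 ± 12.1 CPM in HET and 122.0 ± 11.1 CPM in WT, a log2 fold change of -0.33 ± 0.10. Both were lowest, among KO animals, in the 3 numbered below 700, and KO overlapped with WT for both.

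Ciart, also called Chrono, encodes a repressor that binds BMAL1 and is itself an E-box target (NCBI Gene 229599; chromosome 3, 95878500 to 95882257, minus strand). The KO libraries held 3.56, 4.28, 3.79, 5.32 and 3.88 CPM, against 5.94, 5.64, 5.11, 5.46 and 5.93 CPM in HET. In WT it held 5.18, 6.72, 8.22, 4.86 and 5.70 CPM. Of the KO libraries 4 lay below every HET and WT library, and KO-738 lay among them. Its HET mean of 5.62 ± 0.35 CPM stood at 91.5% of that in WT. Its log2 fold change was -0.56 ± 0.14 in KO against WT, -0.43 ± 0.14 in KO against HET and -0.13 ± 0.14 in HET against WT.

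**Figure D2:**
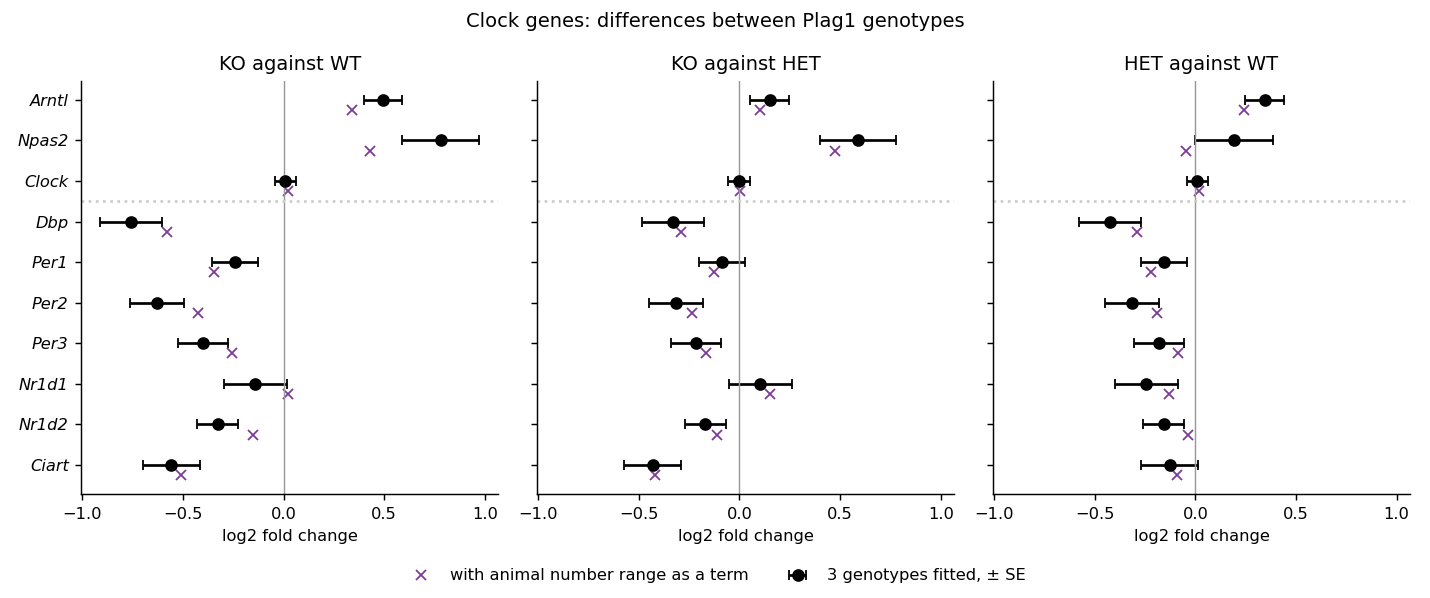
Log2 fold changes of the 10 genes (x axes, points with SE from the fit of all 15 libraries) for each pair of genotypes, with crosses for the fit that has the animal number range as a term. The dotted line parts the activator arm (above) from the target arm. In KO against WT, Arntl and Npas2 lay to the right at 0.49 and 0.78, Clock at 0.01, and the 7 target arm genes to the left.

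Most values in the contrasts with HET were smaller than those in KO against WT. In KO against WT, 7 of the 10 values were negative and the median of the target arm was -0.40, against -0.01 over all genes tested. Groups did not overlap for 2 genes above WT (Arntl and Npas2) and 2 genes below it (Per2 and Per3), where 2.84% of all genes lay above and 1.37% below. In HET against WT, the target arm had a median of -0.18 and all genes one of 0.01, and 0 of the 10 genes passed, where 0.00% of all genes passed by edgeR. At an unadjusted p under 0.05 there were 854 genes (4.40%) in that contrast, and DESeq2 called 1, not one of the 10. Arntl was the only one of the 10 whose HET and WT libraries did not overlap, where 0.717% of all genes lay above and 0.325% below in this way. In KO against HET, 0 of the 10 genes passed by edgeR, 1 by DESeq2 (Npas2) and 3 by limma voom (Npas2, Dbp and Ciart). Of all genes, 380 (1.96%) passed by edgeR, 1242 by DESeq2 and 1907 by limma voom. The target arm had a median of -0.22 in this contrast. Libraries of KO and HET were apart for 0 of the 10 genes, where they were for 3.60% of all genes. The KO against WT and HET against WT values share the WT libraries.

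By mean level per length, Nr1d2 was the most abundant of the genes and Npas2 the least in each genotype, although in KO the libraries of Npas2 and Per3 overlapped. Nr1d2 stood at 18.0 CPM per kilobase of exon in KO, 20.2 in HET and 22.5 in WT. Per1, Clock and Nr1d1 followed at 5.61 to 8.33 CPM per kilobase and were not set apart from each other in KO, where neighbours in this order overlapped. In WT, Dbp was next at 5.24 ± 0.95 CPM per kilobase and its lowest library lay above the highest of Ciart, whereas in KO it stood at 3.11 ± 0.81 and overlapped with Arntl. The place of Arntl in the order thus differed: it had rank 6 of the 10 in KO, with 2.38 ± 0.32 CPM per kilobase, and rank 8 in WT, with 1.69 ± 0.07, where it lay below every Per2 library. Npas2 had 0.872 CPM per kilobase in KO, 0.578 in HET and 0.507 in WT.

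The balance of the arms was taken in each library as the mean log2 CPM of Arntl, Npas2 and Clock minus that of the 7 target genes, and is given relative to the WT mean. It was 0.98, 0.99, 1.18, 0.31 and 0.78 in KO-694, KO-695, KO-696, KO-738 and KO-739. In HET it was 0.51, 0.76, 0.35, -0.01 and 0.36, and in WT it ran from -0.20 to 0.15. All KO libraries were above all WT libraries, of the HET libraries 4 were, and KO-738 fell among the HET libraries. The mean was 0.85 ± 0.33 in KO and 0.39 ± 0.28 in HET (SD, n = 5 each), with an SD of 0.13 in WT. The simplest such ratio, Arntl CPM over Dbp CPM, was 2.39, 2.38, 2.66, 1.075 and 1.77 in KO, between 1.07 and 1.93 in HET, and between 0.62 and 1.04 in WT. By this ratio each KO and HET library lay above each WT library.

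**Figure D3:**
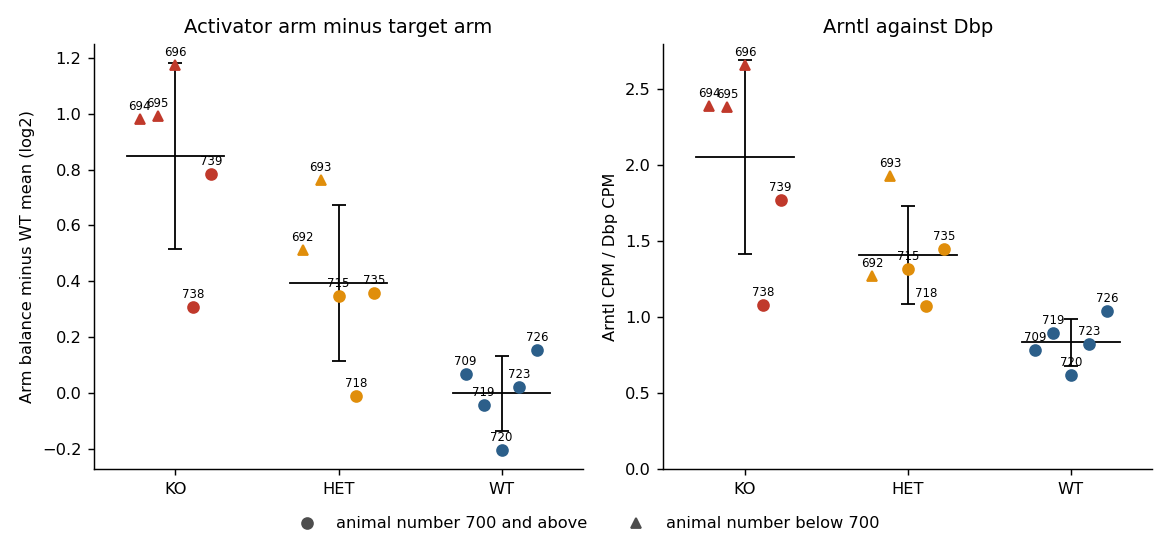
Left, balance of the activator arm over the target arm in each library, as a log2 difference from the WT mean. Right, ratio of Arntl to Dbp CPM. Points are libraries with their animal numbers, triangles mark numbers below 700, and bars give the mean ± SD of 5. The 3 KO libraries numbered below 700 were the highest in both. The WT libraries were the lowest by the ratio, at most 1.04, whereas by the balance HET-718, at -0.01, lay within their range.

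The balance and the levels of some of the genes differed by the number range of the animals inside the mutant genotypes. In KO, the balance averaged 1.05 ± 0.11 in the 3 animals numbered below 700 and 0.55 ± 0.34 in the 2 above. In HET it averaged 0.64 ± 0.18 in the 2 animals below 700 and 0.23 ± 0.21 in the 3 above. Npas2 averaged 4.84 CPM in KO animals below 700 and 3.17 CPM in those above, with no overlap. In HET it averaged 3.29 CPM below 700 and 2.42 CPM above, but the ranges touched, with HET-693 and HET-715 both at 2.78 CPM. Nr1d2 went the other way, at 87.8 CPM in KO animals below 700 and 111.4 CPM in those above, and 97.1 CPM against 117.5 CPM in HET, without overlap in either genotype. Arntl, Dbp and Nr1d1 did not overlap by range in KO but did in HET. Per2 and Per3 did not overlap in HET but did in KO, and Clock and Ciart overlapped in both. The share of all genes split by number in this way was not counted, so nothing is read from these splits. Per1 was split by number in KO, with 43.2 CPM below 700 and 34.3 CPM above, and in HET stood at 41.8 CPM and 42.3 CPM. The KO difference in Per1 rests mostly on KO-739, at 27.9 CPM, since KO-738, at 40.6 CPM, lay just under KO-694, at 41.1 CPM.

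Among the animals numbered 700 and above, which are 2 KO, 3 HET and 5 WT, the balance was 0.55 higher in KO than in WT. There Arntl had a log2 fold change of 0.33, Npas2 of 0.38, Dbp of -0.44, Per2 of -0.50 and Ciart of -0.41, and 0 genes of all tested passed. With the number range as a term in the fit of all 15 libraries, KO against WT values were 0.34 for Arntl, 0.43 for Npas2, -0.58 for Dbp, -0.43 for Per2 and -0.51 for Ciart, and 0 of the 10 genes passed. Nr1d1 then had 0.02 and Nr1d2 -0.15. Since no WT animal is numbered below 700, the range and the genotype cannot be fully told apart. Single libraries also moved the calls. In 15 fits that each left out 1 library, Arntl and Dbp passed in KO against WT in 15, Per2 in 14, Ciart in 8 and Npas2 in 7. Without KO-738, 7 of the 10 genes passed, with Per3 and Nr1d2 added as lower, and without KO-696 only Arntl and Dbp passed. The count over all genes moved in the same direction. It was 2923 without KO-738 and 318 without KO-696, against 1163 with all libraries. Leaving out KO-694, KO-695, WT-719, WT-720 or WT-726 left Arntl, Dbp and Per2, and leaving out KO-739 left 4 genes.

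Transcripts of other cell types also differed between the KO libraries. Summed germ cell markers were at 75.9, 98.3, 154.8, 22.3 and 48.1 CPM in KO-694, KO-695, KO-696, KO-738 and KO-739, between 34.9 and 73.7 CPM in HET, and at 22.5 to 55.8 CPM in WT, and the KO libraries stood in the same order, from KO-696 down to KO-738, as by arm balance. Summed fibroblast markers were at 1836, 2083, 2523, 1247 and 2385 CPM in KO, against ranges of 1195 to 1464 CPM (HET) and 1061 to 1407 CPM (WT). Summed endothelial markers were at 131.8, 134.7, 144.4, 114.9 and 183.6 CPM in KO, against 76.6 to 111.0 CPM (HET) and 69.8 to 95.6 CPM (WT), and macrophage markers at 81.1, 92.5, 86.3, 53.8 and 73.9 CPM in KO, against 52.7 to 62.2 CPM (HET) and 43.9 to 55.5 CPM (WT). The genes past the threshold in KO against WT were Col1a1, Col1a2, Col3a1, Dcn and Lum of fibroblasts, Pecam1, Cdh5, Kdr and Tek of endothelium, Csf1r, Cx3cr1 and Adgre1 of macrophages, and Ddx4 and Ldhc of germ cells, with log2 fold changes between 0.44 (Tek) and 1.95 (Ddx4). Of these, Col1a2, Col3a1, Pecam1, Cdh5, Kdr and Csf1r also passed in KO against HET, and 0 marker genes passed in HET against WT by edgeR. Not one of these marker genes was at 0 in any library. All 4 sums were lowest, among KO libraries, in KO-738, which also had the lowest balance. The order of the others differed by cell type: KO-739, next to last by balance, had the highest endothelial sum and was second to KO-696 in the fibroblast sum. The fibroblast sums of HET overlapped with those of WT. The part of these cell types in the clock gene differences was not tested.

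Genes that vary with Arntl between animals of the same genotype were tested next, since this measure does not use the differences between genotype means. Arntl log2 CPM, centred within genotype, had an SD of 0.20 in KO, 0.17 in HET and 0.06 in WT, and was entered as a term beside genotype in an edgeR fit of all genes. Of 19387 genes 0 passed by edgeR (0.00%) and 0 by limma voom. The smallest edgeR adjusted p was 0.0537, and 8.75% of genes had an unadjusted p under 0.05. The slopes of the 9 other clock genes, in log2 units per log2 unit of Arntl, are therefore values and not calls. Npas2 had a slope of 1.31 ± 0.48 (SE) and Clock one of 0.13 ± 0.16. The 7 target arm genes were all below 0: Dbp at -1.23 ± 0.32, Per2 at -1.14 ± 0.28, Nr1d1 at -0.94 ± 0.40, Per3 at -0.90 ± 0.30, Nr1d2 at -0.65 ± 0.25, Ciart at -0.50 ± 0.40 and Per1 at -0.04 ± 0.35. The median slope over all genes was 0.02. With the animal number range as a further term, the slopes were 0.46 for Npas2, 0.34 for Clock, -1.11 for Dbp, -0.91 for Per2, -0.76 for Per3, -0.68 for Nr1d1, -0.05 for Nr1d2, -0.66 for Ciart and -0.68 for Per1. Those of Npas2 and Nr1d2 were thus nearer to 0 and that of Per1 farther from it.

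**Figure D4:**
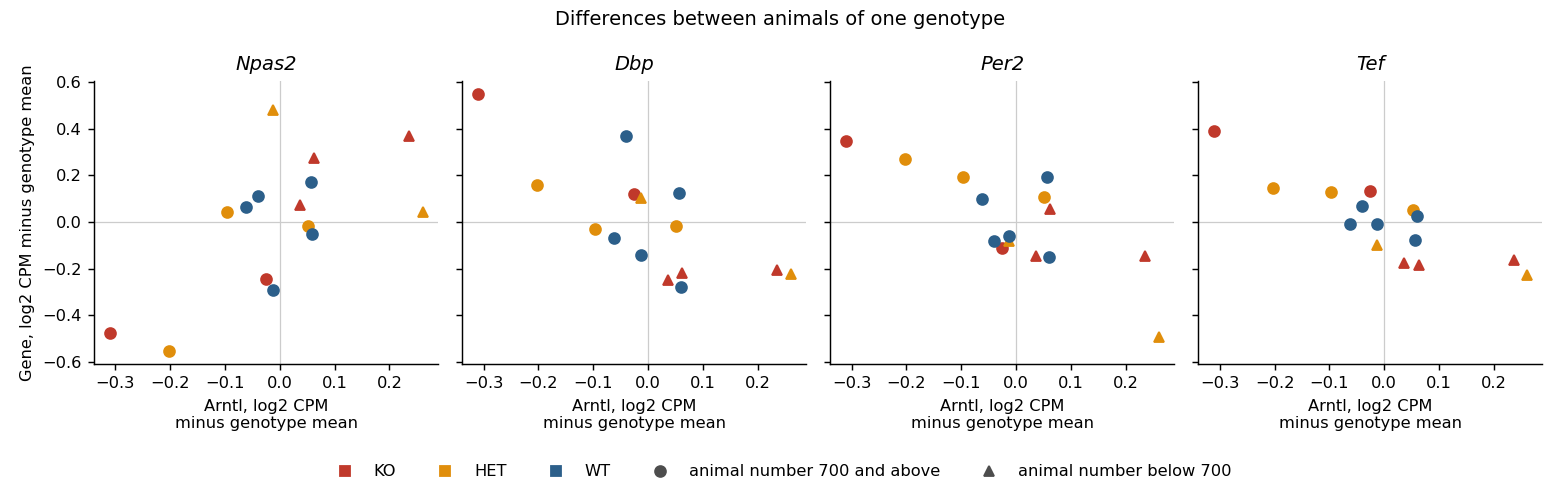
Log2 CPM of Npas2, Dbp, Per2 and Tef (y axes) against that of Arntl (x axes), each minus the mean of its genotype, with 1 point per library. The fitted slopes of Dbp, Per2 and Tef lay below 0, at -1.23, -1.14 and -0.97, and did not pass the threshold. The points farthest to the left and right are KO-738 and HET-693, at -0.31 and 0.26 on the Arntl axis.

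Several slopes lean on a pair of libraries, KO-738 at the low end of Arntl and HET-693 at the high end, which are also those with over 1% ribosomal RNA genes. Without both, Dbp had a slope of -0.68, Per2 of -0.47, Per3 of -1.14, Nr1d2 of -0.77 and Npas2 of 2.23, while Per1 and Ciart turned to 0.79 and 0.04. By the smallest p-values among genes with ordinary symbols and at least 1 CPM, the genes that went most closely against Arntl were Serpine2 (-1.69 ± 0.24), a protease inhibitor gene, Chrdl2 (-1.47 ± 0.23), the beta-defensin genes Defb11 (-1.60 ± 0.27) and Defb10 (-1.56 ± 0.27), Rab17 (-0.99 ± 0.17), Klk1b27 (-2.46 ± 0.43), Cd52 (-1.996 ± 0.35), Fras1 (-1.16 ± 0.21), Anapc13 (-0.77 ± 0.14) and the clock output gene Tef (-0.97 ± 0.17). Those that went most closely with it were led by Sycp2 (4.003 ± 0.81), and Sycp3 (2.36 ± 0.50), Stag3 (1.53 ± 0.34), Adam2 (4.12 ± 0.93) and Adam18 (2.60 ± 0.57) were among the first 10 with it, together with Ube2d2b, Tcp10a, Sh3d21, Tcfl5 and Lrrc34. Sycp2, Sycp3 and Stag3 are genes of the meiotic chromosome axis, and Adam2 and Adam18 encode sperm surface proteins.

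The rest of the clock pathway was followed in 28 further genes. By edgeR, 0 of the 28 passed in each of the 3 contrasts, with 7, 1 and 4 at an unadjusted p under 0.05 in KO against WT, HET against WT and KO against HET. Of all genes, 4.40% were under it in HET against WT, and the shares in the KO contrasts were not counted. Nothing is read from these unadjusted counts. The median log2 fold change of the 28 in KO against WT was -0.03, with 11 values above 0 and 17 below. Both relatives of Dbp were among the lower ones. Tef, a second PAR bZIP factor, was at 90.2 ± 16.8 CPM in KO, 100.005 ± 10.8 CPM in HET and 115.1 ± 4.31 CPM in WT, a log2 fold change of -0.35 ± 0.10 in KO against WT (edgeR adjusted p = 0.0553). Hlf, the third of this family, was at 38.8 ± 9.16 CPM in KO, 47.0 ± 5.83 CPM in HET and 51.1 ± 2.67 CPM in WT, with a value of -0.40 ± 0.13. Their antagonist Nfil3, which binds the same D-boxes, was at 10.6 ± 0.80 CPM in KO, 10.04 ± 0.78 CPM in HET and 8.83 ± 0.75 CPM in WT, with a value of 0.27 ± 0.08. Arntl2, a relative of Arntl, was scarce, at 1.24 ± 0.36 CPM in KO, 0.906 ± 0.20 CPM in HET and 0.731 ± 0.21 CPM in WT, with a value of 0.78 ± 0.24. In HET against WT the smallest p-values were those of Nfil3 (0.19 ± 0.08) and Nono (0.08 ± 0.04), and in KO against HET those of Wee1 (-0.19 ± 0.07) and Nono (-0.09 ± 0.04). Hlf, like the Cry, Bhlhe, ROR and kinase genes in what follows, was chosen after its values were seen.

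**Figure D5:**
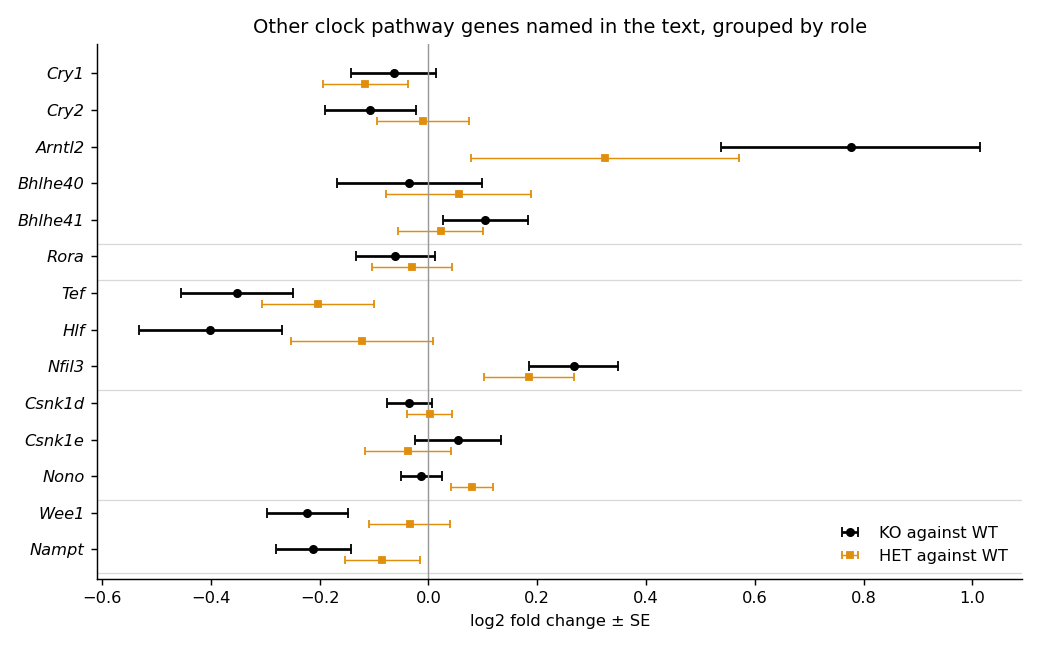
Log2 fold changes with SE of those of the 28 other clock pathway genes that the text names, in KO against WT (black) and HET against WT (orange), grouped by role from top to bottom as repressors and relatives, a ROR activator, PAR bZIP outputs with Nfil3, regulators of PER and CRY, and rhythmic outputs. The PAR bZIP genes Tef and Hlf lay at -0.35 and -0.40 in KO against WT, and the kinase genes Csnk1d and Csnk1e at -0.03 and 0.05.

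These calls depended on the method. DESeq2 called 5 of the 28 in KO against WT (Tef, Hlf and Nampt lower, Nfil3 and Arntl2 higher) and limma voom called 4 (Tef, Hlf, Nampt and Wee1, all lower). Without KO-738 edgeR called 6, namely Tef, Hlf, Nampt and Wee1 as lower and Nfil3 and Arntl2 as higher. The count over all genes rose as well, from 1163 by edgeR to 1930 by DESeq2 and 2923 by edgeR without KO-738. By limma voom it was also above 1163. Nothing is therefore read from these counts of the 28. The repressor genes Cry1 and Cry2 had values of -0.06 ± 0.08 and -0.11 ± 0.08, the E-box repressor genes Bhlhe40 and Bhlhe41 -0.04 ± 0.13 and 0.10 ± 0.08, and the activator gene Rora -0.06 ± 0.07, all in KO against WT. The kinase genes Csnk1d and Csnk1e, whose products phosphorylate PER, had -0.03 ± 0.04 and 0.05 ± 0.08. Against Arntl within genotype, Tef had the smallest p of the 28 (slope -0.97 ± 0.17, edgeR adjusted p = 0.0806) and Hlf the next (-1.02 ± 0.28). The Cry genes had slopes of opposite sign, -0.64 ± 0.19 for Cry2 and 0.47 ± 0.20 for Cry1, and Nfil3 had one of 0.30 ± 0.24.

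Genes of cues that can reset tissue clocks gave 0 calls by edgeR in each of the 3 contrasts, with 2, 5 and 4 of 26 at an unadjusted p under 0.05 in KO against WT, HET against WT and KO against HET. For all genes this share was 4.40% in HET against WT and was not counted in the KO contrasts, so nothing is read from the unadjusted counts. Among 10 glucocorticoid targets the smallest p-values in KO against WT belonged to Sgk1 (-0.34 ± 0.11) and Pdk4 (1.24 ± 0.43). Among 7 temperature-responsive genes they belonged to Rbm3 (-0.11 ± 0.06) and Hspa8 (-0.12 ± 0.07), and among 9 immediate early genes to Egr1 (-0.52 ± 0.28) and Fos (-0.62 ± 0.36). The medians of the glucocorticoid, temperature and immediate early lists in KO against WT were 0.02, -0.11 and -0.20. Pdk4 varied widely in KO, at 10.3 ± 10.6 CPM and from 5.09 to 29.3 CPM, against 4.37 ± 0.62 CPM in WT. In HET against WT the smallest p-values in the same lists were those of Klf9 (-0.08 ± 0.05) and Mt1 (-0.33 ± 0.25), of Hspa1b (-0.99 ± 0.35) and Hspa1a (-1.72 ± 0.63), and of Junb (-0.97 ± 0.41) and Fos (-0.84 ± 0.37). In KO against HET they were those of Pdk4 (1.22 ± 0.43) and Sgk1 (-0.29 ± 0.11), of Rbm3 (-0.22 ± 0.06) and Hspa8 (-0.23 ± 0.07), and of Jun (0.19 ± 0.13) and Atf3 (0.19 ± 0.20). These counts of 0 depended on the method and on single libraries. In the KO contrasts the counts over all genes changed with them too. DESeq2 called Sgk1 as lower in KO against WT and, like limma voom, Rbm3 and Hspa8 as lower in KO against HET. Without KO-738, edgeR called Sgk1 as lower (-0.41) and Pdk4 as higher (1.41) in KO against WT, and Sgk1, Rbm3 and Hspa8 as lower in KO against HET. Sgk1 was also called in KO against WT without KO-694 (-0.41), and in both contrasts without the libraries over 1% ribosomal RNA genes, and Rbm3 in KO against HET without HET-692.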

How the data were processed

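RNA from whole epididymis, teased apart and rinsed in saline to remove sperm, was made into stranded mRNA libraries, per the labels' protocols. The deposited values are raw read counts per NCBI Gene ID, for which the submitters' processing notes list HISAT2 2.0.5, Subread 1.4.6p5 with its featureCounts program, FastQC and the build GRCm38.p6. Strand setting and annotation release are not given in the sources used here. Of 41591 IDs, 96.9% were named from RefSeq GRCm38.p6.

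One edgeR 4.0.16 quasi-likelihood fit (TMM, filterByExpr, robust) covered 15 libraries and 19388 genes, with Benjamini-Hochberg adjustment over all genes and a threshold of 0.05 (R 4.3.3; limma 3.58.1 and DESeq2 1.42.0 as alternatives). Log2 CPM values used a prior count of 2. Exon lengths are those of GENCODE M21. The scripts were tested on simulated counts. Replicates are libraries of separately numbered animals; the closest pair differed by a chi-square of 5.57 per degree of freedom, beyond sampling noise. The common biological coefficient of variation was 16.3%. The 10 genes had 39 to 3939 counts per library.

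The members and lists were chosen with earlier results of these data known. From each list the text names genes past the threshold or, with none, the 2 smallest p-values per contrast, and further genes as marked, and from the slope fit the 10 smallest p-values in each direction among genes with ordinary symbols and a mean of at least 1 CPM. Alternatives were other scaling, tests and filters, the animal number range as a term, and pairs of genotypes. Others were Dbp in place of Arntl in the slope fit, and each library left out. Chosen after seeing the data were fits with libraries over 1% ribosomal RNA genes or animals numbered below 700 left out, and with KO-739 left out. Single-gene values of some genes of the lists are not reported here.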

Additional observations from a re-analysis of the deposited data

Results flagged for a closer look

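Per1 in KO-739 was 27.9 CPM, apart from the other 4 KO libraries, which lay between 40.6 and 45.6 CPM. The gap to the nearest library was a larger share of the range of the 5 than Dixon's critical value of 0.71 allows. Of the 33 sets of 5 libraries looked at in this way it was the only one past that value, and chance gives about 1 in 20. KO-739 is also the library with 3242 CPM of skeletal muscle genes, whose part in the Per1 value was not tested. Without it, the log2 fold change of Per1 in KO against WT was -0.14, against -0.24 with it.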

How the results depend on the processing

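Of 917 single-gene values set beside their main value under the alternatives, 902 moved by less than the spread between libraries (fold changes) or kept their direction and side of the threshold (slopes); depth limits Npas2 most, with 39 to 229 counts per library. The count of genes past the threshold in KO against WT, 1163 by edgeR, was 1930 by DESeq2, 177 with the animal number range as a term, 287 with only the 2 genotypes compared, 2722 without the libraries over 1% ribosomal RNA genes, 0 among animals numbered 700 and above, and 318 (without KO-696) to 2923 (without KO-738) with 1 library left out. In KO against HET it was 380 by edgeR, 1242 by DESeq2, 1907 by limma voom, 0 with only the 2 genotypes compared and among animals numbered 700 and above, 1660 without the libraries rich in ribosomal RNA genes, and 0 to 2443 with 1 library left out. In HET against WT it was 0 by edgeR and 1 by DESeq2, and 0 in each fit with 1 library left out. Of the 28 other clock genes, KO against WT gave 5 by DESeq2, 4 by limma voom, 5 without the libraries rich in ribosomal RNA genes and 0 to 6 with 1 library left out, and KO against HET gave 1 by limma voom, 2 without those libraries and 0 to 1 with 1 left out. The fit on Arntl within genotype called 20 genes with no filter on low counts and 9 with a filter of 1 CPM in 5 libraries, 1 of them another clock gene each time, and with 1 library left out 0 to 314 genes (314 without HET-693) and 0 to 1 other clock genes; DESeq2 was not run for it. The slope of Per1 turned to 0.00745 under that filter and 0.79 without the libraries rich in ribosomal RNA genes, and ran from -0.19 to 0.25 with 1 library left out, above 0 without KO-738, HET-693 or WT-726. That of Ciart was 0.0409 without those libraries and -0.69 to 0.0222 with 1 left out. The arm balance of KO over WT was 0.85, 0.55 among animals numbered 700 and above, and 0.77 to 0.98 with 1 library left out. The causes were not tested. No paired analysis was possible because the labels give each animal its own number, so the genotypes share no replicate numbers.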
